A study of Mus musculus with 41 samples.

Results

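Tissue macrophages are long-lived phagocytes that clear dying cells, recycle iron and handle lipids, and each organ holds several kinds of them. In bone marrow, macrophages at the centre of erythroblast islands hold maturing red cell precursors and take up the nuclei these expel, and other macrophages line bone surfaces and vessels. Osteoclasts, the cells that resorb bone, come from the same lineage and share some of its genes. A set of 10 genes that mark such cells was described here, namely Adgre1, Cd68, Mrc1, Cd163, Vcam1, Siglec1, Cd5l, Mertk, Lyve1 and Trem2. They were taken from a list of names drawn up with earlier results of these data known, and are 10 of the 43346 genes of the count table. For 9 of them the symbol itself was found, and Adgre1 is listed under its older symbol Emr1 and was matched by its Ensembl identifier (ENSMUSG00000004730). By the coordinates of the table (GRCm38), Cd163 lies on chromosome 6, 124304651 to 124330527, Mertk on chromosome 2, 128698956 to 128802894, Cd5l on chromosome 3, 87357881 to 87371073 and Vcam1 on chromosome 3, 116110020 to 116129688.

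The samples were tibia diaphyses of 41 female p16-INK-ATTAC mice on a C57BL/6 background, spun to remove marrow before RNA extraction. All mice carry the transgene, which lets cells that express p16Ink4a be removed when the drug AP20187 (AP) is given, so that no mouse without it served as a control. The 12 young mice (6 to 12 months by the labels) are labelled as vehicle, and the old mice received vehicle (n = 13) or AP at 10 mg per kg (n = 16) 2 times a week for 4 months from 20 months of age. The comparisons ask which transcripts differ with age and which differ when p16Ink4a-expressing cells are targeted in old mice. Each mouse is a separate animal, and mice are named by their number.

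Libraries held 37028959 to 75942717 counts, and all 10 genes were among the 19292 that passed the filter on low counts. A level in CPM, counts scaled to a common library size, is comparable between mice, and a level per kilobase of gene length (RPKM) is comparable between genes. Bone markers were present in every mouse, with 120.1 to 1199 CPM of Dmp1 and 32.2 to 860.8 CPM of Sost, both osteocyte genes. Other tissue remained as well, since Acta1 of skeletal muscle stood at 1299.6 to 20734 CPM and the globin gene Hbb-bs at 869.96 to 9114 CPM. The library of mouse 16 (old + vehicle) stood apart, with the lowest erythroid score of its group (−2.37) and also the lowest neutrophil, B cell, dendritic cell and monocyte scores, each score being the mean z-score of a marker list. Fewer cells of a type and less RNA per cell cannot be told apart in such bulk samples. Cdkn2a, which encodes p16Ink4a, differed by a log2 fold change of −0.67 between old + AP and old + vehicle mice (adjusted p = 0.265 in edgeR's quasi-likelihood test).

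The sequences before the start sites of the genes that carry the main results are shown here: Cd163, the member that fell with age, and Cd5l, the member that varied most. Both are the 250 bases before the RefSeq start on GRCm38.p6, plus strand, from chr6:124304401-124304650 for Cd163 and chr3:87357631-87357880 for Cd5l. Capitals mark matches to short motifs of factors known from macrophages.
Cd163: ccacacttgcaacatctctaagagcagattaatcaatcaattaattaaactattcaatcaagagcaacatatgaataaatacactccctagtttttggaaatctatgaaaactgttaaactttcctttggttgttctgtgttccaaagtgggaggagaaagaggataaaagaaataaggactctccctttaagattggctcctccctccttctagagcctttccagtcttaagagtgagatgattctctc
Cd5l: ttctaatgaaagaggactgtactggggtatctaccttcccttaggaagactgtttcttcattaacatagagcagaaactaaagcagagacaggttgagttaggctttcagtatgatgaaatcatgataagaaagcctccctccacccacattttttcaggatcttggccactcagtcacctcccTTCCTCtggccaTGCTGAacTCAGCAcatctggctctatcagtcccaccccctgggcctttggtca
The motifs searched on both strands were GAGGAA (PU.1, the master factor of the lineage), TGCTGA (a MAF half-site), TGANTCA (AP-1), AGGTCA (a nuclear receptor half-site) and CACGTG (the E-box), while TATAAA, the core promoter element, was searched on the gene strand only. They did not overlap in the Cd5l sequence, which holds a PU.1 match 66 bases before the start and MAF half-site matches at 54 and 46 bases before it. The Cd163 sequence held none of the 6 motifs. Among 32536 windows of this length before gene starts, 23.4% held the PU.1 letters and 16.1% the MAF letters. A start-site window was found for 6 of the 10 genes. Of the others among these 6, Mrc1 held 3 PU.1 matches, Cd68 held a PU.1 match and 2 AP-1 matches, Trem2 held a PU.1, an AP-1 and a nuclear receptor match, and Mertk held none.

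Per length of the gene, the levels in young mice spanned from 92.5 ± 24 RPKM (SD, n = 12) for Cd68 to 2.41 ± 1.10 RPKM for Lyve1. Cd68, which encodes a lysosomal membrane protein, was followed by Vcam1, the adhesion molecule by which island macrophages hold erythroblasts, at 57.5 ± 14.6 RPKM. Adgre1, which encodes the F4/80 antigen, stood at 15.5 ± 2.59 RPKM and Mrc1, the mannose receptor, at 14.03 ± 2.62 RPKM. Their difference is smaller than the SD of either, as is the step from Mertk at 10.7 ± 2.57 RPKM to Cd5l at 8.76 ± 2.55 RPKM. Cd163 at 4.89 ± 0.95 RPKM and Siglec1 at 4.26 ± 1.05 RPKM also lay within an SD of each other, and Trem2 at 2.58 ± 0.52 RPKM was level with Lyve1. The place of Trem2 depends on the length used, because its deposited length of 4946 bases is far above the 1088 bases of its longest protein-coding transcript in GENCODE M21. With that length Trem2 would stand at 11.7 RPKM in young mice, and with their own transcript lengths the others stood between 2.17 and 94.6 RPKM.

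**Figure D1:**
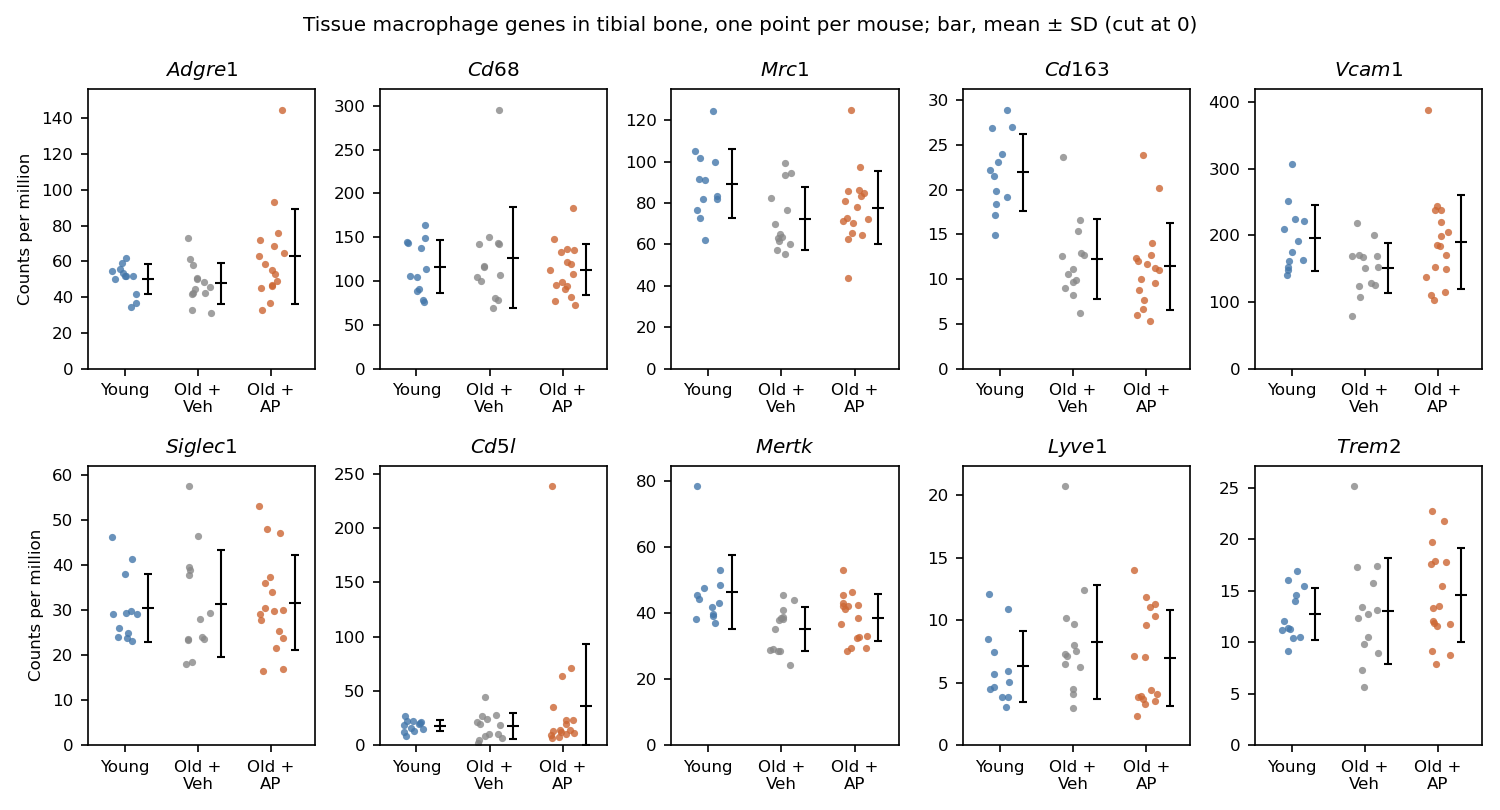
Level of each of the 10 genes (CPM, linear axis from 0) in each young, old + vehicle (Veh) and old + AP mouse, with 1 point per mouse and the group mean ± SD beside the points. Cd163 is the gene in which most old mice of both groups lie below the lowest young mouse, while single old mice stand far above the rest for Cd5l, Adgre1, Cd68 and Lyve1.

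Cd163, the scavenger receptor that takes up complexes of haemoglobin and haptoglobin, was the member that fell with age. Its levels were 14.98 to 28.96 CPM (median 21.9) in young mice, 6.16 to 23.7 CPM (median 11.1) in old + vehicle mice and 5.28 to 23.9 CPM (median 11.1) in old + AP mice. The groups overlapped through a few old mice, since 10 of 13 old + vehicle and 14 of 16 old + AP mice lay below the lowest young mouse. The highest old + vehicle mouse was mouse 16, and the highest old + AP mouse was mouse 19.

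The log2 fold change of Cd163 was −0.85 ± 0.19 (SE) in old + vehicle against young mice (p = 0.00143 after Benjamini-Hochberg adjustment over 19292 genes, edgeR's quasi-likelihood test). In old + AP against young mice it was −0.94 ± 0.18 (adjusted p = 0.00034). Both comparisons share the young mice. Between the old groups the difference was −0.09 ± 0.18 (adjusted p = 0.767), with −0.32 (adjusted p = 0.276) with a skeletal muscle score and −0.20 (adjusted p = 0.644) with an erythroid score as covariate in edgeR. Cd163 kept its call in all 41 fits that left out 1 mouse, with log2 fold changes from −0.96 (without mouse 16) to −0.79 for old + vehicle and from −1.06 to −0.89 for old + AP against young mice.

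Cd163 was the only member called in either comparison with young mice, where a call needs both an adjusted p under 0.05 and a change of more than 0.5 in size on the log2 scale. This is 1 of 10 members, beside 9.06% of all genes tested called in either direction and 4.76% called lower in old + vehicle mice. In old + AP against young mice the count was again 1 of 10, beside 8.58% called in either direction and 4.85% called lower. A share of 1 in 10 is near that background, and the median log2 fold change over the members was −0.06 in old + vehicle and 0.01 in old + AP mice, beside 0.01 and 0.02 over all genes.

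**Figure D2:**
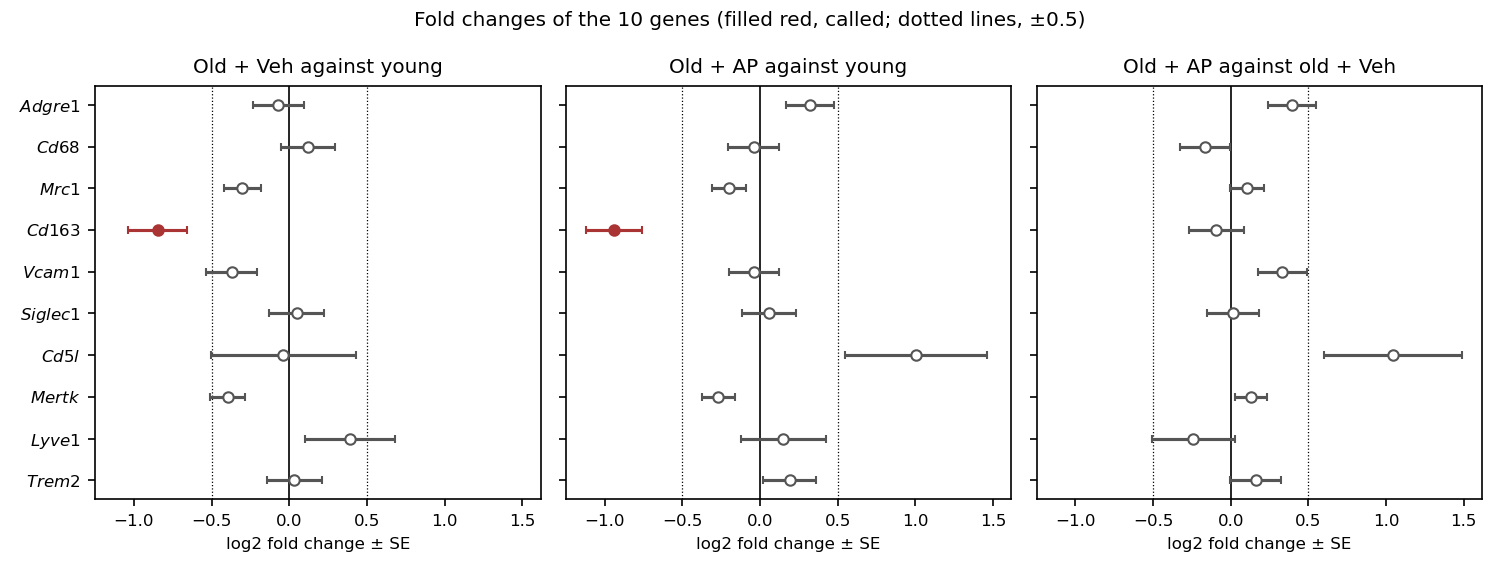
Log2 fold change ± SE of each gene in the 3 comparisons, from the edgeR model of all 41 mice, with filled red points for called genes and dotted lines at the fold-change threshold. Cd163 lies at −0.85 and −0.94 against young mice and at −0.09 between the old groups, and Cd5l has the widest errors.

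Cd163 was also set against other members in the same mouse. The ratio of its CPM to that of Mrc1 had a median of 0.251 in young mice (0.183 to 0.329), 0.161 in old + vehicle mice (0.0972 to 0.251) and 0.146 in old + AP mice (0.0623 to 0.236). On this ratio 8 of 13 old + vehicle and 13 of 16 old + AP mice fell below the lowest young mouse. With Siglec1 as the denominator, 9 of 13 and 13 of 16 did so. The counts were 6 of 13 and 12 of 16 with Adgre1, 7 of 13 and 13 of 16 with Mertk, and 7 of 13 and 8 of 16 with Cd68. Mouse 16 lay above the highest young mouse on the ratio to Mertk. These ratios use the values that gave the fold change and are a description without a test.

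Mertk, a receptor tyrosine kinase by which macrophages recognise dying cells, had the next smallest p with age. Its levels were 37.03 to 78.3 CPM (median 43.5) in young, 24.1 to 45.4 CPM (median 37.9) in old + vehicle and 28.5 to 52.8 CPM (median 39.8) in old + AP mice. The groups overlapped, and 6 of 13 old + vehicle and 7 of 16 old + AP mice lay below the lowest young mouse. The log2 fold change in old + vehicle mice was −0.40 ± 0.11 (adjusted p = 0.01 in edgeR), past the p threshold but not the fold-change threshold. By the p threshold alone 2 of 10 members passed, Cd163 and Mertk, beside 19.4% of all genes. In old + AP against young mice Mertk stood at −0.27 ± 0.11 (adjusted p = 0.0733), and by p alone only Cd163 passed, beside 17.8% of all genes. Mouse 41 was the highest young mouse for Mertk, and without it the old + vehicle value was −0.30 (adjusted p = 0.0323) and the old + AP value −0.17 (adjusted p = 0.21). Over the 41 mice, after subtraction of the group means, Mertk followed the mean z-score of the stromal list, among 110 such relations tested (r = 0.46, rho = 0.53, adjusted permutation p = 0.0187 and 0.00498). It also followed the osteoblast and osteocyte list (r = 0.46, rho = 0.59, adjusted permutation p = 0.0132 and 0.00143). Without the 2 farthest mice these r were 0.61 and 0.50. In old + vehicle against young mice 6 of 10 stromal genes fell, and of 13 osteoblast and osteocyte genes 2 rose and 4 fell. Mertk followed the osteoclast list to a like degree (r = 0.46, rho = 0.47, adjusted permutation p = 0.0143 and 0.0141, with 0.41 without the 2 farthest mice), and no gene of that list was called with age. The part of these cells in the Mertk values was not tested.

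Mrc1 ranged from 62.2 to 124.3 CPM (median 87.3) in young, 55.4 to 99.5 CPM (median 64.8) in old + vehicle and 44.0 to 125.1 CPM (median 75.3) in old + AP mice. Its log2 fold change was −0.30 ± 0.12 in old + vehicle mice (adjusted p = 0.065) and −0.20 ± 0.11 in old + AP mice (adjusted p = 0.213), both from edgeR against young mice. It lay under the young median in 10 of 13 and 14 of 16 old mice. The old + vehicle value passed the p threshold, but not the fold-change threshold, with the muscle covariate (−0.24, adjusted p = 0.0474) and in 6 of 41 fits without 1 mouse, and with the erythroid covariate it was −0.16 (adjusted p = 0.333).

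Of the genes of erythroblast island macrophages, Vcam1 and Siglec1, the sialic acid receptor CD169, gave no call. Vcam1 ranged from 139.9 to 306.6 CPM (median 182.7) in young, 79.1 to 218.3 CPM (median 152.0) in old + vehicle and 103.3 to 388.6 CPM (median 185.2) in old + AP mice. Its log2 fold change was −0.37 ± 0.17 in old + vehicle against young mice (adjusted p = 0.114) and 0.33 ± 0.16 in old + AP against old + vehicle mice (adjusted p = 0.188, both in edgeR). The latter value was 0.22 without mouse 19 (adjusted p = 0.432), 0.12 with the muscle covariate and 0.14 with the erythroid covariate. Siglec1 had medians of 29.1, 28.1 and 29.9 CPM in young, old + vehicle and old + AP mice, and no log2 fold change of it exceeded 0.06 in size, with standard errors of 0.17 to 0.18.

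Red cell transcripts moved in the same mice. Of the 11 erythroid genes tested, 3 globin genes fell and none rose in old + vehicle against young mice, with a median log2 fold change of −0.78 over the list. With the erythroid score, the mean z-score of these genes in each mouse, as a covariate, the old + vehicle value of Vcam1 was −0.04, that of Siglec1 was 0.32, and neither passed the test. The Cd163 call held with this covariate at −0.67 (adjusted p = 0.0149 in edgeR) and with a score of skeletal muscle genes at −0.72 (adjusted p = 0.00091).

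Cd5l, a protein that macrophages secrete and that is known for its tie to lipid metabolism, had the widest spread of the 10 genes. It ranged from 8.67 to 26.6 CPM (median 18.7) in young, 2.29 to 43.8 CPM (median 18.2) in old + vehicle and 6.78 to 238.6 CPM (median 13.8) in old + AP mice. The highest mouse stood 3.07 times above the lowest in the young group, 19.1 times in the old + vehicle group and 35.2 times in the old + AP group. The mean of the old + AP group was set by few mice, since mouse 24 stood at 238.6 CPM and the next, mouse 28, at 70.9 CPM. The log2 fold change was 1.04 ± 0.44 in old + AP against old + vehicle mice (adjusted p = 0.15) and 1.002 ± 0.46 against young mice (adjusted p = 0.119, both in edgeR). Without mouse 24 these values were 0.36 and 0.32 (adjusted p = 0.549 and 0.585). With the erythroid covariate Cd5l was called in old + AP against young mice, at 1.25 (adjusted p = 0.028).

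Adgre1 had its highest level in the same mouse. Its levels were 34.4 to 61.9 CPM (median 51.8) in young, 30.9 to 73.3 CPM (median 45.5) in old + vehicle and 32.8 to 144.8 CPM (median 56.8) in old + AP mice, of which 7 of 16 exceeded the highest young mouse. The log2 fold change in old + AP against old + vehicle mice was 0.39 ± 0.15 (adjusted p = 0.119) and without mouse 24 it was 0.26 (adjusted p = 0.211, both in edgeR).

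In mouse 24 several genes that were chosen after their values were seen also had their highest level of the 41 mice. Fcgr4, an Fc receptor, stood at 562.2 CPM there, against 8.74 to 20.1 CPM in young mice, Itgax (CD11c) at 194.5 CPM against 13.3 to 23.9 CPM, and Itgad (CD11d) at 112.0 CPM against 5.82 to 24.1 CPM. Mouse 8 of the old + vehicle group, the highest of its group for Adgre1 and Cd5l, had the second highest Fcgr4 at 256.5 CPM and Itgax at 85.8 CPM. Mouse 28, with the second highest Cd5l of the 41 mice, had Fcgr4 at 64.1 CPM and Itgax at 37.3 CPM. Its Itgad, at 16.8 CPM, lay within the young range. Siglec1 and Mrc1 were not high in mice 24 and 8, at 27.7 and 65.7 CPM in mouse 24 and 29.5 and 63.3 CPM in mouse 8. For other members mouse 24 stood above its group median in Trem2 (21.8 CPM beside 13.4), Lyve1 (11.3 beside 5.73) and Cd68 (136.3 beside 110.4). It stood below in Vcam1 (110.6 CPM beside 185.2), Mertk (32.9 beside 39.8) and Cd163 (8.75 beside 11.1). In mouse 8 Cd68 (142.7 CPM beside 116.1) and Mertk (38.3 beside 37.9) stood above, and Trem2, Lyve1, Vcam1 and Cd163 below. Mouse 24 also had the lowest summed levels of the osteoclast list (1598 CPM) and of the osteoblast and osteocyte list (4088 CPM) of the 16 old + AP mice. Over all 41 mice Cd5l and Adgre1 each followed the monocyte list (r = 0.58 and 0.57, rho = 0.63 and 0.54, adjusted permutation p at most 0.00461), with 0.53 and 0.57 without the 2 farthest mice. Cd5l also followed the erythroid and neutrophil lists (r = 0.50 for both, rho = 0.56 and 0.61, adjusted permutation p at most 0.0143), with 0.45 and 0.41 without the 2 farthest mice. With the osteoblast and osteocyte list its r was −0.52 (rho = −0.38, adjusted permutation p = 0.0187 and 0.0862), with 0.035 in young, −0.30 in old + vehicle and −0.66 in old + AP mice. The part of these other cells in the Cd5l and Adgre1 values was not tested.

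Cd68, Lyve1 and Trem2 gave no call in any comparison. Cd68 had medians of 109.9, 116.1 and 110.4 CPM in young, old + vehicle and old + AP mice, and mouse 7 of the old + vehicle group stood at 295.6 CPM, against 150.5 CPM for the next. Mouse 7 also had the highest summed level of the osteoclast list, 12884 CPM, against group medians of 3468 to 3894 CPM. The log2 fold change of Cd68 was 0.12 ± 0.17 in old + vehicle against young mice (adjusted p = 0.67 in edgeR) and −0.05 without mouse 7.

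Lyve1, a hyaluronan receptor of lymphatic vessels and of some perivascular macrophages, had medians of 5.36, 7.26 and 5.73 CPM. Its log2 fold change was 0.39 ± 0.29 in old + vehicle against young mice (adjusted p = 0.366) and 0.20 without mouse 16, which had the highest level at 20.7 CPM. Trem2, a lipid receptor of macrophages and osteoclast precursors, had medians of 11.7, 12.7 and 13.4 CPM, and its log2 fold changes lay between 0.03 and 0.19 with standard errors of 0.17 to 0.18. In old + vehicle against young mice the Trem2 value was −0.085 without mouse 16.

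Between old + AP and old + vehicle mice edgeR's quasi-likelihood test called 0 of the 10 members, beside 0.0726% of all genes tested. By adjusted p alone 0 of 10 passed as well, beside 0.171% of all genes. DESeq2 also called 0 of 10, beside 1.27% of the genes it adjusted. At an unadjusted p under 0.05 there were 3 members in either tool, in edgeR Adgre1, Vcam1 and Cd5l, all with higher means in old + AP mice, beside 23.9% of all genes.

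Across mice, most pairs of members had positive correlations. Over the 41 mice, after subtraction of the group means, 40 of 45 pairs of members had a positive Pearson r of log2 CPM (median 0.32). Of the 45 pairs, 20 passed a two-sided permutation test within groups (100000 resamples, Benjamini-Hochberg over 45 pairs), of which 19 were positive. The most closely tied pair was Mrc1 and Siglec1 (r = 0.76, rho = 0.74, both adjusted permutation p = 0.000225). Its r was 0.83 in young, 0.66 in old + vehicle and 0.82 in old + AP mice, and 0.71 without the 2 mice farthest from the median of Mrc1, mice 9 and 19. Vcam1 and Siglec1 followed (r = 0.68, rho = 0.69, both adjusted permutation p = 0.000225), with 0.64 without the 2 farthest mice. Their r was 0.80 in young, 0.71 in old + vehicle and 0.62 in old + AP mice.

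**Figure D3:**
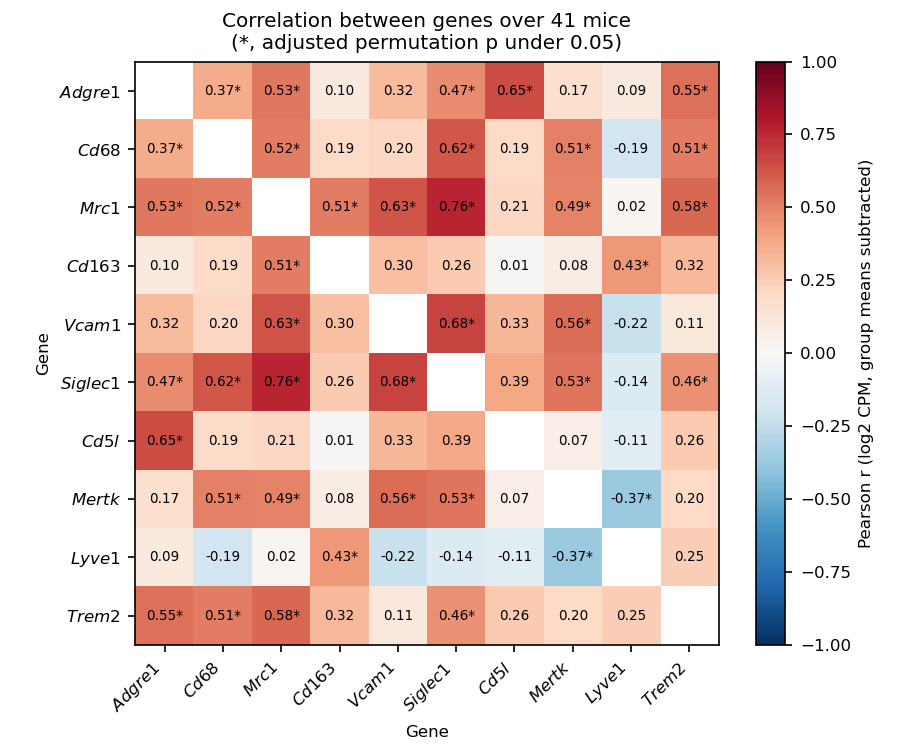
Pearson r between the 10 genes over 41 mice (log2 CPM, group means subtracted), with an asterisk where the adjusted permutation p was under 0.05. Mrc1, Siglec1, Vcam1 and Mertk form a block of positive values from 0.49 to 0.76, and Lyve1 is the gene with negative values to 5 others.

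Cd163 passed the test by r with 2 of 9 members, Mrc1 (r = 0.51, rho = 0.50, adjusted permutation p = 0.00415 and 0.00423) and Lyve1 (r = 0.43, rho = 0.30, adjusted permutation p = 0.0202 and 0.125). Without the 2 mice farthest from the median of the first gene r was 0.40 with Mrc1 and 0.37 with Lyve1. With Mrc1 the r was 0.36 in young, 0.52 in old + vehicle and 0.57 in old + AP mice. With Lyve1 it was −0.38 in young, 0.79 in old + vehicle and 0.45 in old + AP mice, so the sign differed between groups. By rho it also passed with Vcam1 (r = 0.30, rho = 0.40, adjusted permutation p = 0.142 and 0.0269), where r was −0.43 in old + vehicle mice. With Adgre1 r was 0.10 (rho = 0.12, adjusted permutation p = 0.655 and 0.531).

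Cd5l passed the test by r with Adgre1 alone (r = 0.65, rho = 0.54, adjusted permutation p = 0.000525 and 0.00243). This r was 0.69 in young, 0.39 in old + vehicle and 0.78 in old + AP mice, and 0.52 without mice 9 and 24. By rho Cd5l also passed with Vcam1 (r = 0.33, rho = 0.49, adjusted permutation p = 0.117 and 0.00423) and Siglec1 (r = 0.39, rho = 0.52, adjusted permutation p = 0.0539 and 0.00423). Mertk and Lyve1 gave the negative pair that passed (r = −0.37, rho = −0.38, adjusted permutation p = 0.0444 and 0.0399). Its r lay between −0.45 and −0.32 in the 3 groups and was −0.44 without the 2 farthest mice.

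**Figure D4:**
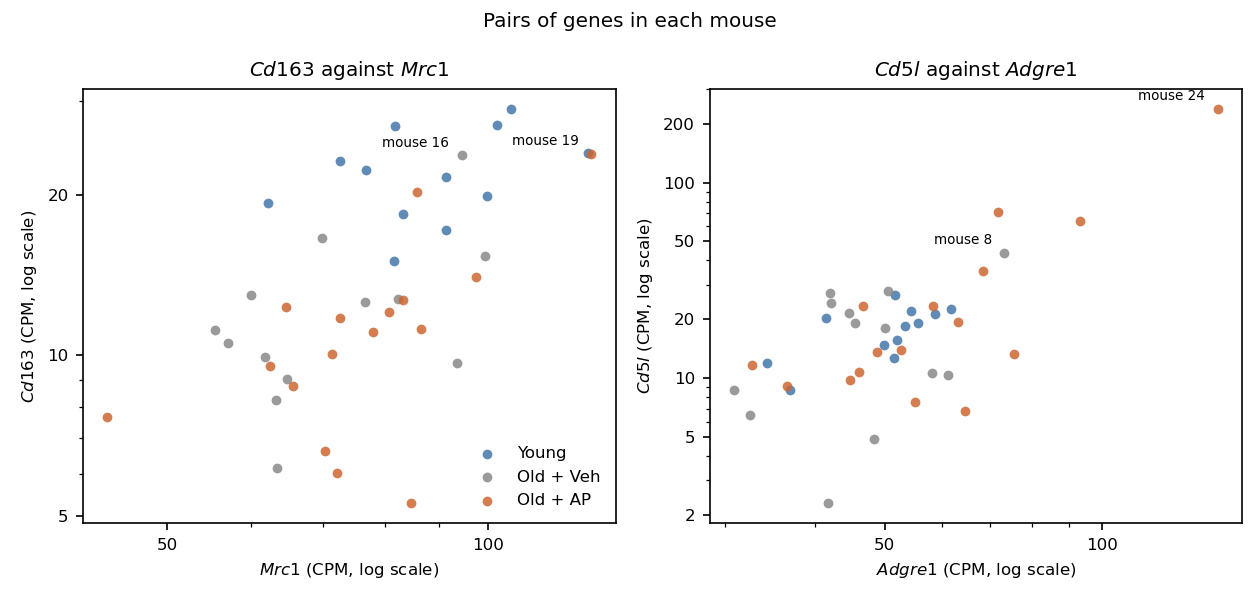
Cd163 against Mrc1 and Cd5l against Adgre1 in each mouse (CPM, log axes), coloured by group. At like levels of Mrc1 most old mice have less Cd163 than young mice, and mouse 24 lies at the upper end for both Cd5l (238.6 CPM) and Adgre1 (144.8 CPM).

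The members also followed markers of other cells. Of 110 relations between the 10 genes and 11 marker lists, a family chosen after the data were seen, Cd68 with osteoclast genes gave the highest r (0.77, rho = 0.76, adjusted permutation p = 0.00022 and 0.000367). This r was 0.94 in young, 0.94 in old + vehicle and 0.57 in old + AP mice and 0.67 without the 2 farthest mice. Vcam1 followed neutrophil genes (r = 0.71, rho = 0.67, adjusted permutation p = 0.00022 and 0.000367) and erythroid genes (r = 0.68, rho = 0.62, adjusted permutation p = 0.00022 and 0.000733). Without the 2 farthest mice these were 0.60 and 0.61, and within groups they were at least 0.42 and 0.52. Lyve1 followed the lymphatic list (r = 0.64, rho = 0.66, adjusted permutation p = 0.00022 and 0.000367), with 0.61 without the 2 farthest mice and 0.48 to 0.76 within groups. The gene Pdpn is in this list and also in the osteoblast and osteocyte list.

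Skeletal muscle genes ran the other way. Their score had a negative r that passed the test for 7 of the 10 genes. For Lyve1 there was no such relation, with r = −0.03 in all mice, 0.73 in young mice and 0.11 without the 2 farthest mice (rho = 0.045, adjusted permutation p = 0.892 and 0.877). The lowest were Mrc1 (r = −0.66, rho = −0.61, adjusted permutation p = 0.000367 and 0.000733) and Vcam1 (r = −0.65, rho = −0.64, adjusted permutation p = 0.00022 and 0.00055), and without the 2 farthest mice these were −0.54 and −0.58. Within groups r was −0.79 to −0.43 for Mrc1 and −0.81 to −0.45 for Vcam1. For Cd163 r was −0.56 (rho = −0.56, adjusted permutation p = 0.00266 and 0.00302), with −0.70 in young, −0.18 in old + vehicle and −0.77 in old + AP mice and −0.45 without the 2 farthest mice. Cd163 also passed by r with the lymphatic list (r = 0.47, rho = 0.33, adjusted permutation p = 0.0237 and 0.118), with −0.17 in young and 0.54 in each old group and 0.43 without the 2 farthest mice. By rho it passed with the erythroid list (r = 0.33, rho = 0.44, adjusted permutation p = 0.136 and 0.0244), with 0.69 in young, −0.07 in old + vehicle and 0.53 in old + AP mice and 0.18 without the 2 farthest mice.

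Single mice were mixed in this respect. Mouse 19 was the highest old + AP mouse for Mrc1, Cd163, Vcam1 and Siglec1 and had the lowest muscle score of its group. Mice 40, 20 and 9 were each the lowest of their group for 4 members, and each had the highest muscle score of its group. Mouse 7, the highest old + vehicle mouse for Cd68, Mrc1 and Siglec1, had the lowest muscle score of its group, and mouse 22, the lowest for Adgre1 and Siglec1, had the 12th lowest of 13. Some extreme mice had no such muscle score: mouse 16, the highest old + vehicle mouse for Cd163, Lyve1 and Trem2, had the 10th lowest muscle score of 13, and mouse 24, the highest old + AP mouse for Adgre1 and Cd5l, had the 9th lowest of 16. Mouse 18, the lowest old + AP mouse for Mertk, had the 2nd lowest muscle score of 16.

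**Figure D5:**
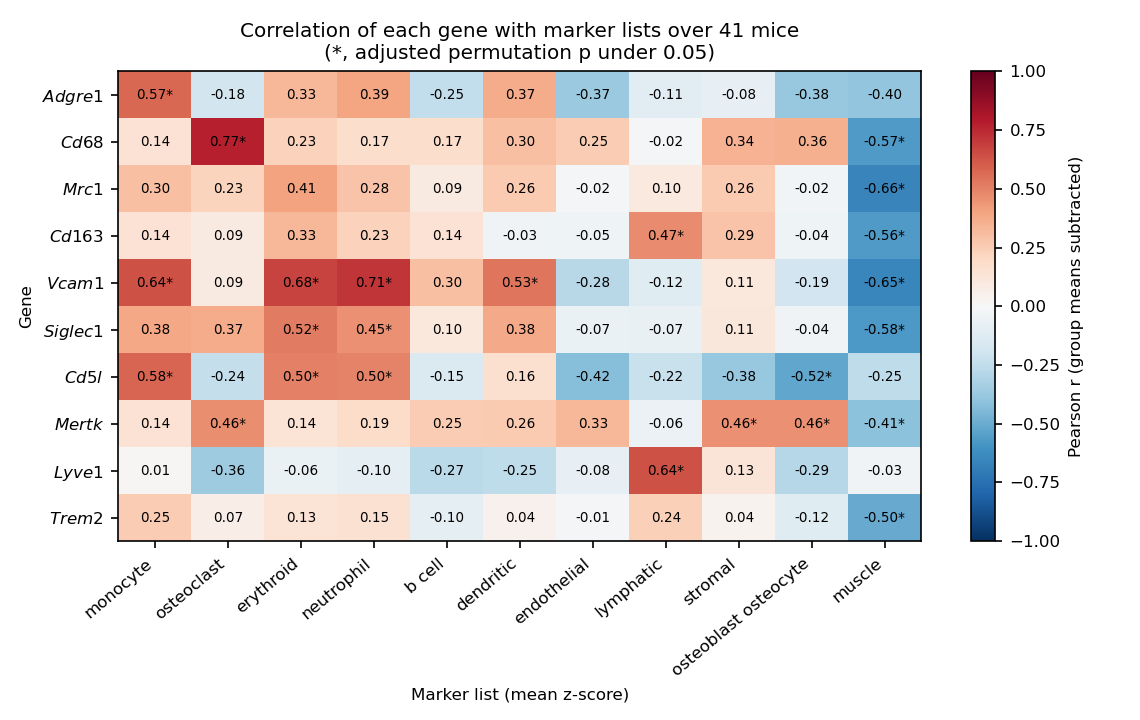
Pearson r of each gene with the mean z-score of each of 11 marker lists over 41 mice (group means subtracted), with an asterisk where the adjusted permutation p was under 0.05. The muscle column runs from −0.66 for Mrc1 to −0.03 for Lyve1, and Cd68 stands out with osteoclast genes (0.77) and Lyve1 with lymphatic genes (0.64).

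Among 15531 other genes with a mean of at least 1 CPM, those most like each member over the 41 mice (Pearson r after subtraction of the group means, a description without a test) differed from member to member. For Cd68 they were Ctsz, a lysosomal protease (0.96), and Csf1r, the receptor for the growth factor CSF1 (0.95). For Adgre1 they were AF251705, now named Cd300c2 (0.89), and Ctss (0.87), and for Cd5l they were Itgad (0.89) and Ddhd1 (0.81). For Vcam1 they were Cmpk2 (0.87) and Il17rb (0.86), for Lyve1 Gm20488 (0.86) and Medag (0.85), and for Mrc1 Slc9a9 (0.82) and Erlin2 (0.80). Siglec1 was most like Lgals3bp (0.81) and Cfp (0.79), Trem2 most like Mmp19 (0.79) and Ctsb (0.78), and Mertk most like Dapk1 (0.79) and Chka (0.78). The values for Cd163 were the lowest of the 10 genes, with Rab3gap2 (0.74) and Slc48a1, a haem transporter (0.71).

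A further 115 genes of macrophages and monocytes, of which 114 were tested, put the members in context. In old + vehicle against young mice 9 rose and 7 fell, with a median log2 fold change of 0.08 beside 0.01 over all genes. These 16 calls of 114 stand beside the 9.06% of all genes called. The balance depends on the model, since with the erythroid covariate 18 rose and 4 fell, and by adjusted p alone 15 rose and 9 fell. In old + AP against young mice 11 rose and 4 fell, with a median of 0.10 beside 0.02, and the share of all genes called was 8.58%. With the erythroid covariate 20 rose and 6 fell there. Between the old groups edgeR called 0 of 114, with 19 at an unadjusted p under 0.05, and DESeq2 called 1, Cbr2, at −0.59.

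Of 18 perivascular macrophage genes, 2 rose and 4 fell in old + vehicle mice and 1 rose and 4 fell in old + AP mice, each against young. Ccl8, a chemokine, rose by 2.35 ± 0.32 (SE, log2 scale) in old + vehicle mice, where its mean was 13.6 ± 7.98 CPM (SD, n = 13) beside 2.67 ± 1.52 CPM (n = 12) in the young group, and by 2.07 ± 0.31 in old + AP mice (adjusted p = 3.15e-06 and 1.11e-05 in edgeR). It was above the young median in 13 of 13 and 16 of 16 old mice. The lectin gene Cd209a, which dendritic cells also express, had log2 fold changes of −0.95 ± 0.22 and −1.27 ± 0.21 (adjusted p = 0.00189 and 4.68e-05). Retnla fell by 1.03 ± 0.23 on the log2 scale in old + vehicle mice (adjusted p = 0.00114), and Cd209f fell by 1.03 ± 0.25 in old + AP mice (adjusted p = 0.00408).

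Of 20 genes of island macrophages and iron handling, 1 rose and 1 fell in old + vehicle mice and none passed in old + AP mice, where 5 had an unadjusted p under 0.05 in edgeR. Nr1h3, which encodes the sterol sensor LXR alpha, rose by 0.57 ± 0.16 (adjusted p = 0.00875), and without mouse 8 it stood at 0.49, under the fold-change threshold (adjusted p = 0.0212). Spic, a factor of iron-recycling macrophages, had −0.51 ± 0.18 (adjusted p = 0.0413), a call that 27 of 41 fits without 1 mouse kept. Of 21 lipid and lysosome genes, 1 rose and 1 fell in old + vehicle mice and 3 rose in old + AP mice. The cholesterol exporters went in opposite directions in old + vehicle mice, with Abcg1 at 0.64 ± 0.23 (adjusted p = 0.0472) and Abca1 at −0.58 ± 0.12 (adjusted p = 0.000489). The call of Abcg1 there was kept in 17 of 41 fits without 1 mouse. In old + AP mice Abcg1 rose by 0.83 ± 0.23 (adjusted p = 0.0097, and by 0.54 with adjusted p = 0.0199 without mouse 24) and the scavenger receptor Olr1 by 0.72 ± 0.21 (adjusted p = 0.013). Itgax was called at 0.95 ± 0.34 (adjusted p = 0.0452) but stood at 0.43 without mouse 24 (adjusted p = 0.223), and 24 of 41 fits without 1 mouse kept the call. DESeq2 did not call Itgax in this comparison.

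Of 22 genes common to mononuclear phagocytes, 1 rose in old + vehicle and 2 rose in old + AP mice. Fcgr1 rose by 0.64 ± 0.16 in old + AP mice (adjusted p = 0.00449). Fcgr4 was called at 1.73 ± 0.62 in old + vehicle mice (adjusted p = 0.0423), where without mouse 8 it was 0.97 (adjusted p = 0.235), and at 2.21 ± 0.61 in old + AP mice (adjusted p = 0.0103), where without mouse 24 it was 1.04 (adjusted p = 0.101). The fits without 1 mouse kept these calls in 27 and 40 of 41. DESeq2 also called Fcgr4 in both comparisons, at 0.94 and 1.01 (adjusted p = 0.0314 and 0.0149). Of 10 monocyte genes, 3 rose in old + vehicle and 4 in old + AP mice. Ace, Vcan and Chil3 had 0.69 ± 0.14, 0.59 ± 0.18 and 0.58 ± 0.21 in old + vehicle mice (adjusted p = 0.000402, 0.0153 and 0.0424), and the calls were kept in 41, 40 and 27 of 41 fits without 1 mouse. In old + AP mice Vcan, Chil3 and Ly6c2 had 0.77 ± 0.17, 0.71 ± 0.20 and 0.67 ± 0.20 (adjusted p = 0.0016, 0.0112 and 0.0158).

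Of 17 genes for the uptake of dying cells, 1 fell in old + vehicle mice, the integrin Itgb3 at −0.53 ± 0.18 (adjusted p = 0.0279, kept in 36 of 41 fits without 1 mouse), and none passed in old + AP mice, where 8 had an unadjusted p under 0.05 in edgeR. Of 15 growth factor and chemokine signals tested, Ccl2 was called in old + vehicle mice at 1.74 ± 0.46 (adjusted p = 0.00572), and without mouse 16 it was 0.87 (adjusted p = 0.069). Csf2rb, a receptor subunit for GM-CSF, rose by 0.58 ± 0.16 in old + AP mice (adjusted p = 0.012), with 0.49 without mouse 19 (adjusted p = 0.03). DESeq2 called no member other than Cd163 in the comparisons with young mice.

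Markers of other cells moved with age in the same libraries. In old + vehicle against young mice 8 of 10 B cell genes and 6 of 10 stromal genes fell, 0 of 10 osteoclast genes passed in edgeR (1 at an unadjusted p under 0.05), and 2 of 12 muscle genes rose. Of 13 osteoblast and osteocyte genes 2 rose and 4 fell, of 10 dendritic cell genes 4 fell, and of 11 endothelial and 12 neutrophil genes none passed in edgeR (5 and 3 at an unadjusted p under 0.05). The genes that fell in old + AP against young mice were 7 of 13 of the osteoblast and osteocyte list, 5 of 10 stromal, 2 of 11 erythroid, 2 of 10 dendritic cell, 1 of 10 B cell and 1 of 6 lymphatic genes. Those that rose there were 3 of 12 neutrophil, 2 of 13 osteoblast and osteocyte and 1 of 10 dendritic cell genes. Of the 6 lymphatic genes 1 rose and 1 fell in old + vehicle against young mice. The summed level of the stromal list was 3181 to 4794 CPM in young, 1556 to 3248 CPM in old + vehicle and 1477 to 3295 CPM in old + AP mice, and no marker of any list was at 0 throughout a group. The part of these cells in the fall of Cd163 was not tested. The muscle and erythroid scores used as covariates come from the same libraries, so those fits are no such test.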

How the data were processed

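RNA from centrifuged tibia diaphyses of 41 mice was sequenced on an Illumina instrument. Per the labels, the submitters' processing notes name TopHat2 2.0.6, HTSeq and the build GRCm38, and the annotation release and strand setting are not given in the sources used here. The authors deposited raw read counts per gene, 1 column per mouse, for 43346 genes with gene lengths, coordinates and symbols. The labels list the molecule as genomic DNA, while the study describes RNA sequencing. All count columns were used. Mir511, Gm43109, Gm14011 and Gm23172 overlap Mrc1, Vcam1 or Mertk in GENCODE M21, so that reads from the overlaps could be affected. The highest count in any mouse was 0 for Mir511 and Gm14011 and 24 for Gm23172, and the count table held no gene named Gm43109.

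Counts were analysed in R 4.3.3 with edgeR 4.0.16: TMM normalization, the default filter by expression (19292 genes kept), and a quasi-likelihood test in a single model of the 3 groups. SE is the log2 fold change divided by the square root of F. Calls needed an adjusted p under 0.05 together with a change of over 0.5 in size (log2). At total counts of 37028959 to 75942717 per mouse 1 count is a small part of 1 CPM. Averaged over genes, counting error is small beside the spread between mice, since any 2 mice of a group differed by at least 33 times the counting variance. This average need not hold for each gene. CPM used TMM library sizes of the kept genes, and RPKM also the deposited length. Correlations used log2 CPM with group means subtracted and permutation within groups, in Python 3.11.15 with NumPy 2.4.6. Figures were drawn with matplotlib 3.10.9.

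On counts simulated for old + vehicle against young mice (19292 genes), 78 of 100 genes changed by a fold of 2 and 52 of 100 changed by a fold of 1.5 were called, as was 1 of 18941 unchanged genes. The counts were drawn for each gene separately, without single outlying mice or ties between genes, so these shares need not hold in the data. Alternatives were DESeq2 1.42.0, its size factors, counts without the low-count filter, fits of only the 2 groups compared, calls by p alone, a muscle or erythroid score as covariate, and each mouse left out in turn. The members and lists were chosen with earlier results of these data known. The genes named were all members, in each list of macrophage genes up to 3 called genes with the largest fold change per comparison, the marker genes a description turns on, and the 2 genes most alike each member. RefSeq start-site sequences on GRCm38.p6 were found for 6 of 10 members.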

Additional observations from a re-analysis of the deposited data

How the results depend on the processing

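Cd163 kept its call against young mice in both old groups under every alternative run, and no alternative called a member between the old groups. The count of members called in old + vehicle against young mice rose from 1 to 2 without the fold-change threshold, which added Mertk (adjusted p = 0.01), and in old + AP against young mice it rose from 1 to 2 with the erythroid covariate, which added Cd5l at 1.25 (adjusted p = 0.028). Leaving out each mouse, these counts stayed at 1 and 1, and at 0 between the old groups. The count of other macrophage genes called ranged from 10 to 17 in old + vehicle against young mice (16 with all mice, 10 without mouse 41), from 12 to 18 in old + AP against young mice and from 0 to 2 between the old groups (1 without mouse 2 or 9, 2 without mouse 10). In old + AP against young mice it was 26 without the fold-change threshold and 26 with the erythroid covariate, against 15 (20 and 11 of them higher with and without that covariate), and in old + vehicle against young mice 22 with the erythroid covariate (18 higher, against 9 of 16) and 24 by p alone (15 higher). Between the old groups DESeq2 called 1. Over all genes DESeq2 called 200 between the old groups, where edgeR called 14. The cause of these differences was not tested, other than that of the threshold.

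No value called in its own comparison changed sign, and those that did are given here. With the erythroid covariate, Adgre1 was 0.081 and Cd5l 0.48 in old + vehicle against young mice, Siglec1 was −0.14 between the old groups, and Cd68 was 0.032 and Vcam1 0.11 in old + AP against young mice. With the muscle covariate, Cd5l was 0.033 in old + vehicle against young mice, Mrc1 was −0.026 and Siglec1 −0.16 between the old groups, and Siglec1 was −0.033 in old + AP against young mice. Leaving out each mouse, the old + vehicle values against young ranged from −0.047 to 0.18 for Cd68, −0.057 to 0.12 for Siglec1, −0.24 to 0.061 for Cd5l and −0.085 to 0.098 for Trem2. Between the old groups they ranged from −0.23 to 0.0056 for Cd68, −0.21 to 0.025 for Cd163 and −0.070 to 0.12 for Siglec1. In old + AP against young mice they ranged from −0.10 to 0.013 for Cd68, −0.16 to 0.037 for Vcam1 and −0.020 to 0.13 for Siglec1. Of 45 pairs of members, 20 passed the correlation test with or without subtraction of group means and 19 without mouse 16.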
